A study of Mus musculus with 16 samples.

Results

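RNA tags that fell in the 3′ untranslated regions (3′UTRs) of protein-coding RNAs (pcRNAs) were studied in the RNA–chromatin interactions of mouse embryonic stem cells (mESCs) of the line PGK12.1. They were the rows of the deposited interaction tables whose RNA tag was annotated both as protein_coding and as three_prime_UTR. There were 39158 such pairs among 1305107 in Input and 40100 among 1415135 in H3K27me3-RADIP. RADIP ligates RNA to nearby chromatin DNA through a bridge adaptor in fixed nuclei, and then pulls down the chimeric molecules by immunoprecipitation of H3K27me3, the histone mark that Polycomb repressive complex 2 deposits at silenced genes. The Input was a part of the same sonicated lysate, set aside before the immunoprecipitation, and met no antibody. All cells were grown with leukemia inhibitory factor and fixed with 1% formaldehyde, and no genotype or treatment other than the antibody separated the groups. The labels list 8 libraries per group, and the study names 4 biological replicates per group, with no statement of which libraries belong to each. The authors had merged the libraries into 1 table per group, so no spread between replicates can be given and PGK12.1 is the single cell line behind all values. Every test below compares the 2 merged libraries, not the conditions, and every interval covers counting error only.

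The 3′UTR is the stretch of an mRNA between the stop codon and the poly(A) tail. It carries the AAUAAA hexamer, which directs cleavage and polyadenylation, and the sites that microRNAs and RNA-binding proteins read to set the stability, localization and translation of the transcript. Because it lies at the far end of the gene it is transcribed last, and, unlike an intron, it stays in the mature mRNA. On chromatin, a 3′UTR tag can therefore come from a transcript near completion at its own locus or from an mRNA that has left it.

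A tag is a stretch of 25 bases, and a pair was listed by the authors when the RNA it belongs to and the 25-kb bin of its DNA tag had an adjusted P-value (q-value) of at most 0.1. That test was made per RNA, not per region. Of the combinations of a pcRNA and a bin, 15519 of 61272 (25.3%) of the Input library and 16728 of 70000 (23.9%) of the RADIP library held at least 1 3′UTR tag. Those made of 3′UTR tags alone numbered 23 and 17. The rest were listed together with intron or exon tags of the same RNA. The smallest share that was taken as detectable, 3 pairs of a library, was 0.000230% in Input and 0.000212% in H3K27me3-RADIP. As a check of the cell type, 7 stem cell markers of 13 in the Input table and 8 in that of H3K27me3-RADIP had listed pairs, 3163 and 3278 in sum, led by Esrrb, and 3 and 5 of 10 markers of feeder fibroblasts and early differentiation had 49 and 96. Pou5f1, Nanog, Dppa5a, Tdgf1 and Utf1 had no listed pair in either library. The cells were analysed in bulk, so that fewer cells with an interaction and fewer RNA molecules per cell cannot be told apart.

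The places where 3′UTR tags piled up are shown first, because they set how far the number of tags of a gene reflects its 3′UTR as a whole. Most positions were used sparingly: 62669 of 66570 tag positions (94.1%) carried a single distinct pair over both libraries. At 190 positions at least 5 distinct pairs shared the RNA tag, and these held 2.03% of the distinct pairs. The deposited 25-base tags at some of the most used positions are given 5′ to 3′ in the sense of the transcript (mm10, genomic sequence of the RefSeq assembly of the same build). The capital is the central base of the deposited interval. The study's methods state that fragments were assigned by their centre. Base composition was displaced from the deposited RNA tags, as described at the end, and this was not corrected here.
Mcph1, chr8:18802499-18802523, plus strand: gtcacctaacagAcactgagtccca
Adam23, chr1:63594291-63594315, plus strand: tccctcatcttcCcccattccttct
Kdm5b, chr1:134632894-134632918, plus strand: tgcagtgtcctgCagtgctgtgatg
Tra2b, chr16:22245616-22245640, minus strand: tctgtttaaggcTgttaaaatgtag
Fto, chr8:91525899-91525923, plus strand: cggagctggaatGgattaagattta

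The Mcph1 position had 59 distinct pairs in Input and 52 in H3K27me3-RADIP, with DNA tags in 59 different 25-kb bins at a median distance of 124 kb. It gave 64 of the 160 Mcph1 3′UTR pairs in Input and 55 of 205 in H3K27me3-RADIP. Mcph1 encodes microcephalin, a protein of the DNA damage response and of chromosome condensation. The position in Adam23, a gene for a membrane protein of the ADAM family, had 11 and 13, and the one in the H3K4 demethylase gene Kdm5b had 11 and 7. The position in Tra2b, which encodes a splicing regulator, was uneven, with 16 Input but 2 RADIP distinct pairs. The Fto position had 4 and 12, none of them with the DNA tag in its own bin. EcoP15I, the enzyme that releases the tags, recognises CAGCAG. In a window of 75 bases from the tag start, in transcript sense, CAGCAG occurred at 5.81% of positions with 1 distinct pair, 9.50% of those with 2, 11.6% of those with 3 or 4, 12.8% of those with 5 to 9 and 15.4% (4 of 26) of those with 10 or more. Its reverse complement, CTGCTG, occurred at 7.49%, 8.71%, 6.51%, 2.44% (4 of 164) and 3.85% (1 of 26) of positions in the same classes. The part of this motif in the piled tags was not tested.

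In the libraries as a whole, 3′UTR tags made up 3.0% of the Input library (95% Wilson interval 2.97–3.03) against 2.83% of H3K27me3-RADIP (2.81–2.86), and the difference was -0.17 percentage points (95% interval -0.21 to -0.13, p = 3.14e-16 in a 2-sided chi-square test on pairs). Coding exons fell from 4.17% to 3.94%, 5′UTRs from 1.15% to 1.02% and exons outside these classes from 2.40% to 2.17%, whereas intron tags held 85.9% and 86.1%. On 18 of 20 chromosomes the 3′UTR share was lower in H3K27me3-RADIP, the exceptions being chromosomes 10 and 12. The direction depended on how pairs were weighted. Within every class of distance between RNA and DNA tag, the 3′UTR share was not lower in H3K27me3-RADIP: 4.81% and 4.84% within 25 kb (p = 0.548), 2.22% and 2.33% from 25 to 100 kb (p = 0.00312), 1.62% and 1.7% from 100 kb to 1 Mb (p = 0.0019) and 0.625% and 0.635% beyond 1 Mb (p = 0.803; chi-square tests on pairs). H3K27me3-RADIP had fewer short-range pairs, where 3′UTR tags are most frequent. With its cis pairs weighted to the distance classes of Input its 3′UTR share was 3.07% against 3.01%. With each RNA name weighted equally, the mean share was 5.54% for Input against 5.80% for H3K27me3-RADIP.

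The tags were spread over many genes. In Input 5639 RNA names had a 3′UTR tag (60.7% of the pcRNA names listed), in H3K27me3-RADIP 5812 (60.5%), and 4293 of 7158 were found in both. The median name had 3 3′UTR pairs in each library. The 10 leading names held 6.09% of 3′UTR pairs in Input and 6.39% in H3K27me3-RADIP, and the leading 100 held 20.2% and 20.9%.

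D10Wsu102e, an uncharacterized gene on chromosome 10 (ENSMUSG00000020255.8, chr10:83360221-83488505, plus strand), had the most 3′UTR pairs, 514 in Input and 594 in H3K27me3-RADIP. They were 90.7% and 91.2% of all its pairs, the highest share among genes with at least 50 pairs in each library. Its 3′UTR is annotated over 122.6 kb in GENCODE, and 1007 of its 1108 tags lay downstream of the end of its curated RefSeq transcripts. The tags reached from the start of the annotation to its end, with 127 in Input and 118 in H3K27me3-RADIP in the first 10 kb, 117 and 150 between 25 and 50 kb, and 33 and 42 in the last stretch beyond 100 kb. Per kb of 3′UTR the gene had 4.19 (Input) and 4.85 (RADIP) pairs, below the 7.64 and 7.25 per kb of its short introns. Of the bins made of 3′UTR tags alone, it held 18 in Input and 16 in H3K27me3-RADIP.

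Where an annotated 3′UTR ended with the poly(A) hexamer, the tags before it could be counted. The end of Esrrb, which is described with the other pluripotency genes, is shown as an example with many tags, with the hexamer in capitals (mm10, RefSeq assembly of the same build).
Esrrb, chr12:86521593-86521622, plus strand: tatctgaaatctAATAAAtaaggaaaggtc

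In the 1 kb before this hexamer lay 26 Input and 35 H3K27me3-RADIP tags. Among all 7149 genes with a 3′UTR tag and a matched gene end, 64.7% had AATAAA in transcript sense in the last 60 bases of the annotation, as did 60 of the 100 genes with the most tags. The median tag lay 1016 bases before the annotated end of its transcript in Input and 1008 bases in H3K27me3-RADIP.

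**Figure D1:**
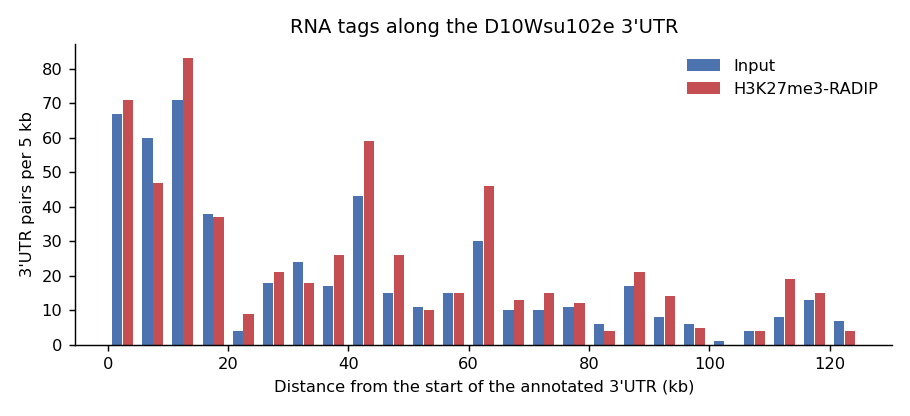
Number of 3′UTR pairs of D10Wsu102e (y axis) in steps of 5 kb from the start of its annotated 3′UTR (x axis), for Input (blue bars) and H3K27me3-RADIP (red bars). Tags occur from the start of the 3′UTR to its far end in both libraries, and the highest step, from 10 to 15 kb, holds 71 and 83.

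Ncl followed with 322 3′UTR pairs in Input and 311 in H3K27me3-RADIP. It encodes nucleolin, an abundant nucleolar RNA-binding protein, and all 633 tags lay in exons of its RefSeq transcripts. They were 62.0% and 67.61% of its pairs. With 54.6 and 52.7 pairs per kb its 3′UTR was among the densest, above the 20.2 and 14.02 per kb of its introns. Serbp1, the gene of an mRNA-binding protein found on inactive ribosomes, had 317 and 236, of which 360 of 553 over both libraries lay beyond the RefSeq end of the transcript. As a share of all pairs of the library, its 3′UTR pairs in H3K27me3-RADIP were 0.687 times those in Input (exact 95% interval 0.578–0.815), and its intron pairs were at 0.502 times. All ratios of genes below are scaled in this way.

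The next names were long genes in which 3′UTR tags were a small part of the pairs. Fto, the gene of an RNA N6-methyladenosine demethylase, had 188 in Input and 266 in H3K27me3-RADIP, which were 4.14% and 4.41% of its pairs. Of these, 175 and 246 lay in an intron of the principal transcript, in the 3′UTR of another annotated isoform, so that unspliced Fto RNA cannot be told apart from that isoform. Zfp704, a zinc finger gene, had 212 and 230. Enah, which encodes an actin regulator, had 195 and 203. Bcat1, the cytosolic branched-chain aminotransferase gene, had 167 and 222. Mcph1 had 160 and 205. Qk, which encodes the RNA-binding protein quaking, had 167 and 146. Kdm5b had 141 and 151 and Dido1, a chromatin reader gene, 141 and 133. Among these, only Serbp1 and Fto had an interval of the ratio that left out 1; for Fto the ratio was 1.30 (1.08–1.58) for 3′UTR pairs and 1.23 for intron pairs.

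**Figure D2:**
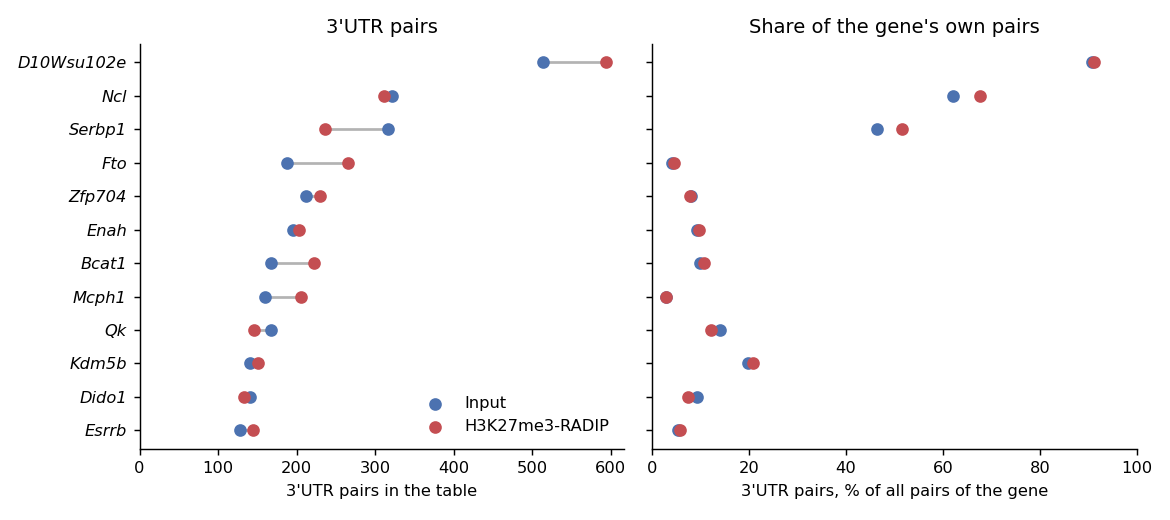
The 12 genes with the most 3′UTR pairs over both libraries, with the number of 3′UTR pairs on the left and their share of all pairs of the gene in percent on the right, Input in blue and H3K27me3-RADIP in red. D10Wsu102e leads with 514 and 594 pairs, and in share it is followed by Ncl (62.0% and 67.61%) and Serbp1 (46.4% and 51.6%).

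The number of tags followed the size of the annotated 3′UTR (Spearman's rho 0.47 across 7148 genes, which are not independent replicates), and equally the number of intron tags of the gene (rho 0.47 across the same genes). Genes with a 3′UTR over 8 kb, 207 in number, held 12.8% of the 3′UTR pairs in Input and 12.4% in H3K27me3-RADIP. Per kb, however, 3′UTRs and introns carried much the same number of tags in genes that had a 3′UTR tag in at least 1 library and an intron tag. Listed genes with no 3′UTR tag in either library were left out, which favours the 3′UTR in this comparison. Summed over 6450 genes in Input there were 2.04 pairs per kb of 3′UTR and 2.08 per kb of intron, and over 6587 genes in H3K27me3-RADIP 2.07 and 2.25. The 3′UTR was the denser part in 48.7% and 49.3% of genes. Uniqueness of mapping was not accounted for. Among the 259 genes with at least 50 3′UTR pairs the densest 3′UTR was that of Rps19, a ribosomal protein gene, with 56.2 (Input) and 65.2 (RADIP) pairs per kb. Only 1 of these pairs lay in an exon of its curated RefSeq transcripts. Hnrnpab, an hnRNP gene, had 45.1 and 46.3. The 3′UTR of Kdm5b, with 31.5 and 33.7 per kb, stood above its introns at 7.67 and 7.14, but 32 of its 141 Input and 47 of its 151 RADIP tags lay in curated RefSeq exons.

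The label three_prime_UTR covered several kinds of place. By GENCODE, 78.9% of the tags in Input and 78.7% in H3K27me3-RADIP lay in the 3′UTR of a principal transcript, 17.2% in both in that of another coding isoform only, and 3.73% and 3.84% in that of a decay-prone or other transcript. Some 13.1% and 13% lay in an intron of a principal transcript. Those tags paired at longer range, with medians of 18.9 and 31.0 kb in the Input and RADIP tables, against 8.93 and 12.7 kb for the others. By curated RefSeq transcripts, 75.7% and 76.0% lay in exons, 14.05% and 13.7% beyond the last exon and 9.78% and 9.70% in introns.

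Among the listed pairs, 3′UTR tags paired mostly with DNA near their own gene. All but 1 of the 39158 pairs in Input and all but 7 of the 40100 in H3K27me3-RADIP were in cis. The trans share was low for intron tags too, at 0.00285% in Input and 0.0255% in H3K27me3-RADIP. The authors' removal of background had eliminated many trans pairs because of their low frequency. How often 3′UTR RNA met other chromosomes can therefore not be judged from the listed pairs. The 8 trans pairs, from Enah, Zfp704, Adam23, Plekha7 and Snd1, all had their DNA tag in the same bin, chr11:3150001-3175000. That bin took all 37 trans pairs of pcRNAs in Input and 261 of 341 in H3K27me3-RADIP. The middle cis pair of Input spanned 9.75 kb (quartiles at 2.35 and 53.9 kb), that of H3K27me3-RADIP 14.2 kb (3.16 and 87.5 kb). This was shorter than for any other part of the genes: in Input, exons outside the other classes had a median of 17.5 kb, coding exons 22.8 kb, 5′UTRs 33.7 kb and introns 49.6 kb. When intron tags were weighted to the genes that the 3′UTR tags came from, their medians were 16.8 kb for Input and 25.7 kb for H3K27me3-RADIP. When they were also taken from the same 25-kb bins as the 3′UTR tags, these were 12.7 and 17.8 kb, against 9.65 and 13.9 kb for the matched 3′UTR tags.

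**Figure D3:**
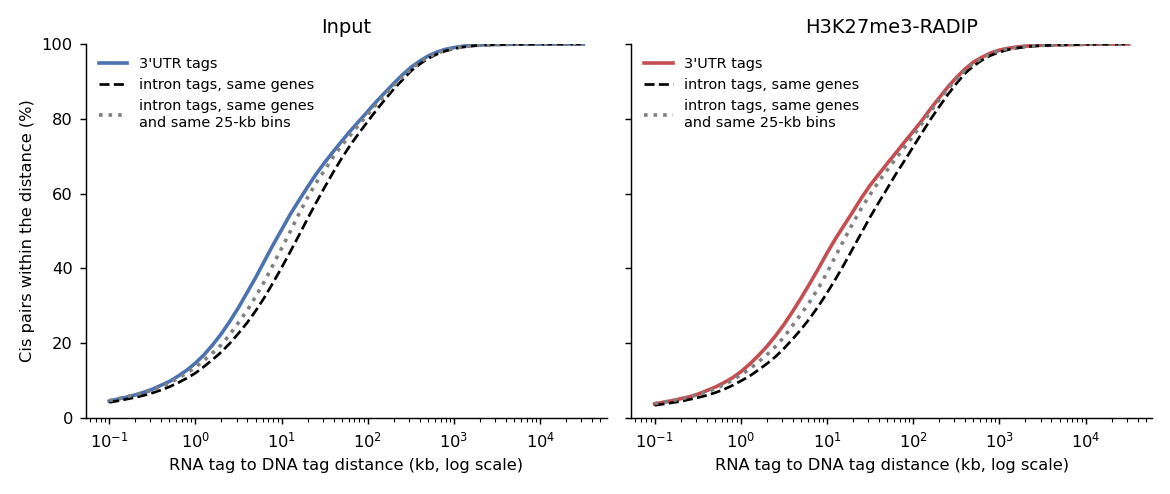
Cumulative share of cis pairs (y axis, percent) within a given distance between RNA and DNA tag (x axis, kb, log scale) for 3′UTR tags (solid), intron tags weighted to the same genes (dashed) and intron tags weighted to the same genes and 25-kb bins (dotted), in Input on the left and H3K27me3-RADIP on the right. At 10 kb the 3′UTR curve lies above both intron curves in both libraries, whereas up to 158 bases it lies below that of intron tags from the same bins.

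The DNA tag lay in the same 25-kb bin as the RNA tag for 50.03% of the 3′UTR pairs of Input (49.5–50.5) against 44.6% of those of H3K27me3-RADIP (44.1–45.0), or -5.48 percentage points (-6.17 to -4.78, p = 8.59e-54 in a chi-square test on pairs). For intron pairs the shares were 27% and 22.6%. Within the same genes, the odds that a tag paired with its own bin were higher for 3′UTR than for intron tags, with a Mantel–Haenszel odds ratio of 1.56 in Input (1.52–1.598; Cochran–Mantel–Haenszel chi-square 1332 over 4788 genes) and 1.68 in H3K27me3-RADIP (1.64–1.73; chi-square 1770 over 4888 genes). Against intron tags of the same gene and the same 25-kb bin, the odds ratio was 1.00 in Input (0.971–1.03; p = 0.971) and 1.04 in H3K27me3-RADIP (1.01–1.08; p = 0.00637; chi-square tests as above). Among the 290 genes with at least 20 3′UTR pairs in each library, the own-bin share was lower in H3K27me3-RADIP in 203, and the median distance was longer in 208 (71.7%). The median distance of intron tags was longer in 264 of the 287 of these genes where it could be compared. Reach was ranked by the mean of the 2 median distances among these genes, so the order within a single library can differ. The longest were Wwox, with medians of 1353 and 859 kb over 30 Input and 41 RADIP pairs, Exoc4 (620 and 442 kb), Fto (376 and 360 kb), Jarid2 (22.5 and 709 kb) and Smyd3 (306 and 278 kb). Of the Wwox tags, 0 in Input and 3 in H3K27me3-RADIP lay in curated RefSeq exons, and the medians of its intron tags were 1035 and 1406 kb.

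Distant pairs remained less frequent from 3′UTRs also when position was matched. The DNA tag lay over 100 kb away in 18.0% of the Input and 23.4% of the RADIP pairs of 3′UTRs, against 38.0% and 45.4% of intron pairs. With intron tags of the same gene and bin, the odds ratio was 0.885 in Input (0.851–0.920; Cochran–Mantel–Haenszel chi-square test, p = 5.37e-10) and 0.886 in H3K27me3-RADIP (0.856–0.918; p = 2.09e-11). Beyond 1 Mb there were 375 3′UTR pairs from 96 genes in Input and 656 from 139 genes in H3K27me3-RADIP, with Mcph1 (37 and 82) and Fto (43 and 63) in front. The DNA tag lay downstream of the RNA tag, in the direction of transcription, in 60.7% and 60.9% of 3′UTR pairs. With intron tags of the same gene and bin the odds of a downstream DNA tag were 0.954 times as high for 3′UTR tags in both libraries (0.928–0.981 in each; chi-square tests, p = 0.000827 and 0.000847).

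**Figure D4:**
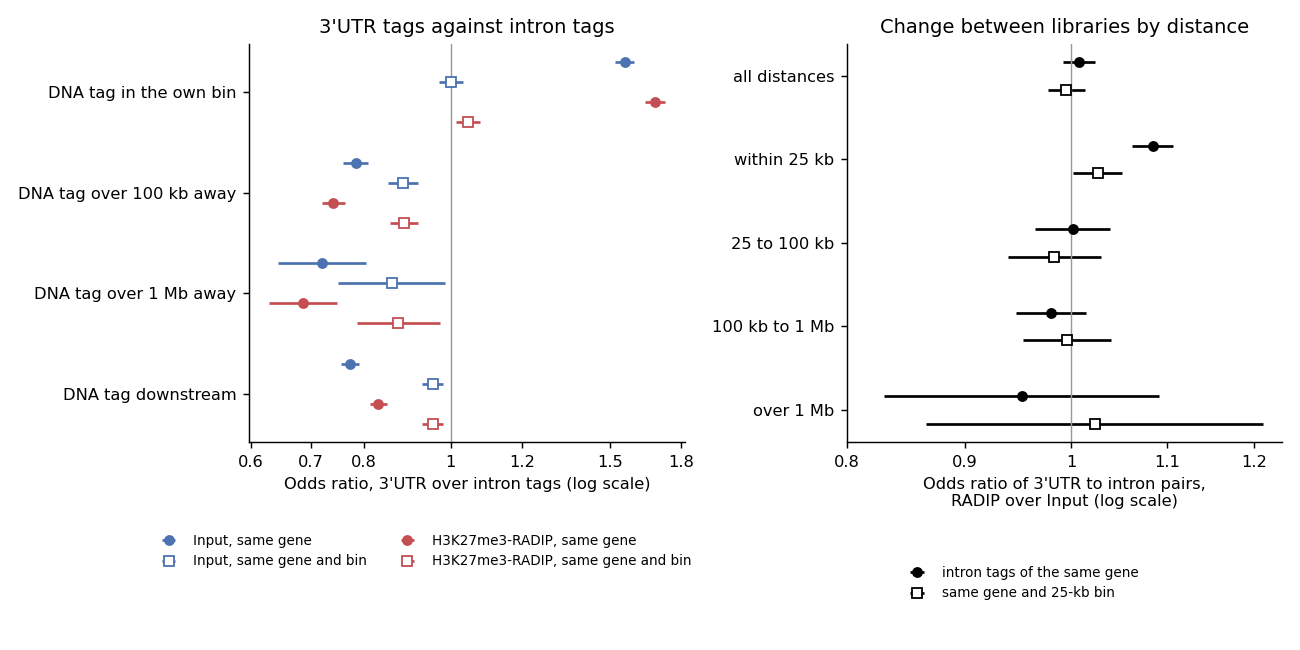
Mantel–Haenszel odds ratios with 95% intervals (bars), on log axes. On the left, 3′UTR over intron tags for 4 outcomes, Input in blue and H3K27me3-RADIP in red, with intron tags of the same gene (filled) or of the same gene and 25-kb bin (open); on the right, 3′UTR to intron pairs in H3K27me3-RADIP over Input, overall and by distance. The own-bin odds ratio, which rests on a fixed grid of 25-kb bins, moves from 1.56 and 1.68 to 1.00 and 1.04 when the bin is matched.

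Did 3′UTR tags change between the libraries beyond the change of their genes? Stratified by gene, the odds of a 3′UTR tag against an intron tag in H3K27me3-RADIP over Input were 1.01 (0.992–1.02; Cochran–Mantel–Haenszel chi-square test, p = 0.319). With intron tags of the same bin the odds ratio was 0.995 (0.977–1.01; chi-square test, p = 0.63). Among cis pairs within 25 kb it was 1.08 (1.06–1.11; chi-square test, p = 8.12e-15), or 1.03 (1.00–1.05; p = 0.0339) with the bin matched, and in the distance classes from 25 kb on it lay between 0.952 and 1.00, with intervals that held 1.

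Single genes were compared where they had at least 20 3′UTR pairs over both libraries, which 977 of 7158 did. A ratio of at least 2 in H3K27me3-RADIP over Input was found in 68 genes (6.96%) and a ratio of at most 0.5 in 92 (9.42%), together 16.4% of the genes tested. Scaled to the 3′UTR pairs of each library in place of all pairs, these were 82 and 75, so that the larger number of lower genes turned with the scaling. The same rule on intron pairs called 19.3% of 6990 pcRNA names, 550 up (7.87%) and 801 down (11.5%). Of the 977 genes, 938 could be tested on intron pairs, and 13 were called up (1.39%) and 25 down (2.67%), together 4.05%. The share called fell with the number of 3′UTR pairs, from 25.8% of genes with 20 to 29 pairs to 1.59% of those with at least 100, and at each number it was below that of introns. The exact interval left out 1 for 39 of the 68 and 54 of the 92, before any allowance for the number of genes. The intron pairs moved to the same side of 1 in 50 of the 68 and 80 of the 92, where over all 977 genes the intron ratio was above 1 in 44.5% and below 1 in 54.2%.

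Among genes with at least 50 3′UTR pairs found in both libraries, Mgmt, a DNA repair methyltransferase gene, had the highest ratio, with 12 Input and 41 RADIP pairs (3.15, interval 1.62–6.59), while its intron pairs stood at 1.44. Ube2f, a NEDD8-conjugating enzyme gene, had 13 and 39 (2.77, 1.45–5.65), and Adcy1, an adenylyl cyclase gene, 15 and 36 (2.21, 1.18–4.35) with intron pairs at 1.01. Lrpap1, encoding a chaperone of lipoprotein receptors, had 21 and 47, and Gpr107 26 and 54. These genes were chosen by their 3′UTR ratio, so nothing is read from its place above the intron ratio. With tags in exons of curated RefSeq transcripts only, Gpr107 had 19 and 22 pairs and its ratio was 1.07, below that of its introns, 1.2, and Mgmt kept 1 pair, too few for a ratio. Ube2f kept 1 of its 13 Input and 4 of its 39 RADIP pairs, so that its ratio too rests mostly on tags outside those exons. The lowest ratio was that of Zfp207, a zinc finger gene with a role at kinetochores, with 39 pairs against 11 (0.260, 0.120–0.518), of which 5 and 1 lay in curated RefSeq exons. The paraspeckle protein gene Rbm14 had 41 and 16 (0.360, 0.189–0.655), 27 and 9 of them in such exons. Zfp568, a KRAB zinc finger gene, had 44 and 19 (0.398, 0.220–0.696), the splicing factor gene Srsf1 36 and 16, and Aff4, of the super elongation complex, 68 and 32. Intron pairs of Zfp207 and Aff4 were lower as well, at 0.435 and 0.510, as were the 8 and 2 of Srsf1 at 0.231, and those of Zfp568 stood at 0.840.

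**Figure D5:**
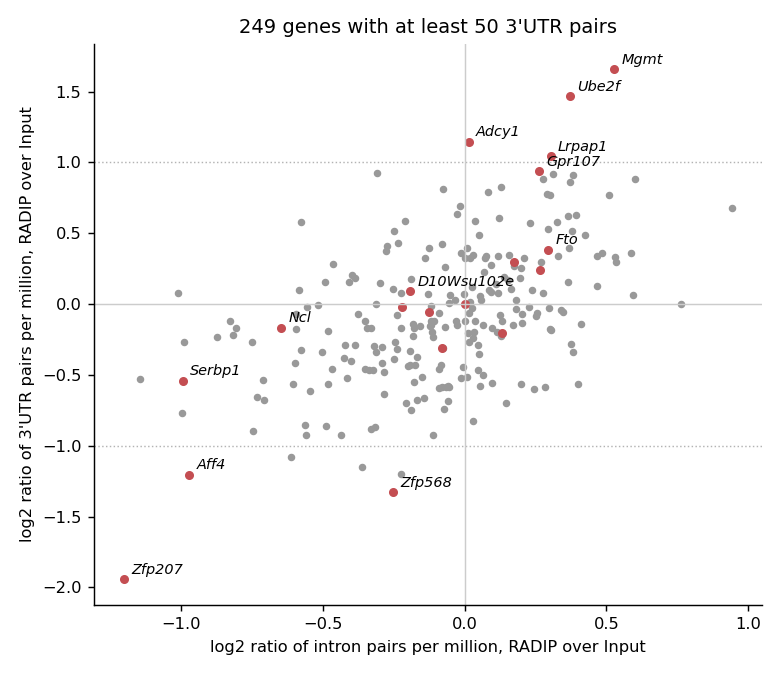
Log2 ratio of 3′UTR pairs (y axis) against that of intron pairs (x axis), H3K27me3-RADIP over Input and scaled to all pairs of each library, for the 249 genes with at least 50 3′UTR pairs over both libraries and at least 20 intron pairs in each. Each point is a gene, red points are the genes with the most 3′UTR pairs or the highest and lowest ratios and dotted lines mark the 2-fold limits; Mgmt and Ube2f lie highest and Zfp207 lowest.

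Of the names with 3′UTR pairs in 1 library only, 1346 for Input and 1519 for H3K27me3-RADIP, none had more than 22 and 21. None listed means that no such tag fell in a combination of RNA and bin that passed the q-value limit. The ratios here are therefore of listed pairs and give no bound for pairs that were removed. Tmem167 had 22 in Input and none in H3K27me3-RADIP (exact upper limit of the ratio 0.168), and its intron pairs went from 38 to 9. Against a floor of 3 pairs per library, which leaves out counting error, it was 7.95-fold lower. Cenpb, the gene of a centromere protein, had 15 and none, and Ccdc127 12 and none. Btg2, an antiproliferative gene, had none in Input and 21 in H3K27me3-RADIP, 6.46-fold higher against the same floor (exact lower limit of the ratio 4.80). D1Ertd622e had none and 15, and Icmt, a carboxyl methyltransferase gene, none and 13. Btg2, D1Ertd622e and Icmt had no pair of any kind listed in Input, and Cenpb and Ccdc127 none in H3K27me3-RADIP.

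Some genes with a high 3′UTR share had few or no listed intron pairs. Banp, a gene for a nuclear matrix-associated protein, had 34 3′UTR pairs in Input and 47 in H3K27me3-RADIP (68.0% and 72.3% of its pairs), and no intron pair. Inside its borders and on its strand, 2856 intron pairs carried the name Galnt2l. Map1lc3b, the gene of the autophagy protein LC3B, had 35 and 48 3′UTR pairs and no intron pair, with 50 intron pairs there under the name Galnt2l, and Rbm14 had 421 under the name Gm21992. In all, 11 of the 977 genes with at least 20 3′UTR pairs had no intron pair, and in 6 of these the intron pairs within the borders of the gene carried another name. Plpbp, a pyridoxal phosphate-binding protein gene, had 33 and 42 3′UTR pairs (61.1% and 70.0%), and 9 intron pairs in Input only.

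Gene groups were described by counts, beside the 3.10% and 2.95% that 3′UTR tags made up of all pcRNA pairs, a ratio of 0.944 for all 3′UTR pairs, a median log2 ratio of -0.12 over the 977 genes and the 6.96% of these genes past 2-fold upwards and 9.42% downwards, 16.4% in all. At list sizes of 1 to 18 genes with at least 20 3′UTR pairs, a few called members or none is near that background, and nothing is read from the counts of called members below. Pluripotency factors had 305 3′UTR pairs in Input and 350 in H3K27me3-RADIP over 14 of 24 genes, at 6.17% and 6.57% of their pairs. Esrrb, a nuclear receptor of the naive pluripotency network, gave 128 and 145 of them, with 36.4 and 41.2 pairs per kb of 3′UTR against 14.1 and 14.8 per kb of intron, and its own-bin share was 26.6% and 8.97%. Trim71, an RNA-binding let-7 target, had 42 and 60, a ratio of 1.32 that turned to 0.830 with RefSeq exon tags only. Of the 6 members with at least 20 3′UTR pairs, 0 passed 2-fold in either direction.

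Polycomb subunits had 183 3′UTR pairs in each library over 24 of 32 genes, 1.71% and 1.57% of their pairs. Jarid2 decided this share: without it, an alternative chosen after seeing the data, the list had 136 and 137 3′UTR pairs at 3.70% and 3.74%, above the share over all pcRNAs. Jarid2, a cofactor of Polycomb repressive complex 2, had 47 and 46 3′UTR pairs among 7046 and 7961 in all. The median distance of its 3′UTR pairs was 22.5 kb for Input and 709 kb for H3K27me3-RADIP, against 417 and 672 kb for its intron pairs. Aebp2, another accessory subunit of that complex, had 20 and 31. Of 6 members with at least 20 pairs, Rbbp4, a histone-binding subunit, was past 2-fold with 21 and 11 (0.483, 0.210–1.05), but not when scaled to the 3′UTR pairs. DNA methylation enzymes had 150 and 162 over 6 of 9 genes, mostly from the 5-methylcytosine dioxygenase genes Tet1 (93 and 91) and Tet2 (31 and 25), and 0 of 4 members passed 2-fold.

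Factors that themselves act on 3′ ends had 119 and 122 3′UTR pairs over 21 of 26 genes, a ratio of 0.945 (0.728–1.23), while their intron pairs stood at 0.742 (0.697–0.789). Ppp1cb, a phosphatase subunit that joins the cleavage machinery, had 21 and 39, and Wdr33, which reads the AAUAAA hexamer, 21 and 26; 0 of 3 members passed 2-fold. Their 3′UTR share was 4.42% and 5.53%, a difference that was not tested. The microRNA pathway had 256 and 273 over 15 of 18 genes. Ago2, the slicing Argonaute, had 49 and 49. Ddx6, a helicase of mRNA decay, had 4 and 20 (4.61, 1.54–18.6) and was the only one of 9 members past 2-fold.

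Ribosomal proteins had 356 and 333 3′UTR pairs over 38 of 66 genes, 18.0% and 18.6% of their pairs, with an own-bin share of 83.7% and 71.5%. Rps15a had 80 and 71 and Rps19 50 and 58. Of 12 members with at least 20 pairs, Rpl12 and Rpl31 were past 2-fold upwards and Rps20 downwards, the latter not when scaled to the 3′UTR pairs. Replication-dependent histone mRNAs, which end in a stem-loop in place of a poly(A) tail, had 54 and 34 over 5 of 8 genes, at 33.3% and 26.6% of their pairs and with 100% and 97.1% in the own bin. H1f2, a linker histone gene, had 21 and 13, and H1f3 9 and 10, of which 1 pair each lay in a curated RefSeq exon. The ratio of the histone list was 0.581 (0.367–0.908). Its intron pairs, 26 in Input and 29 in H3K27me3-RADIP, stood at 1.03 (0.585–1.82). They came from other listed genes, because H1f2 and H1f3 had no annotated intron. Zinc finger Zfp genes had 856 and 800 over 128 of 175 names (ratio 0.862, 0.782–0.9502; 0.984 for intron pairs), with Zfp704 and Zfp710 (36 and 58) in front. Of 18 members with at least 20 pairs, Zfp207, Zfp568 and Zfp148 were past 2-fold downwards and 0 upwards, or 3 and 1 when scaled to the 3′UTR pairs, and the median log2 ratio of the 18 was -0.23.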

How the data were processed

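The deposited q-values were calculated by the authors per RNA and 25-kb bin, using CHiCANE in a modified form. Per the labels and the study's methods, tags were mapped to mm10 with BWA (version 0.7.15-r1140 in the submitters' processing notes), uniquely mapped pairs were kept, and RNA tags were assigned by their centre with GENCODE M25. Libraries of each group were merged by the authors, and pairs above a q-value of 0.1 had been removed. Here table rows were counted as pairs (1305107 in Input, 1415135 in H3K27me3-RADIP), repeats included. Shares were given Wilson intervals, genes were used as strata in Mantel–Haenszel odds ratios with Robins–Breslow–Greenland intervals and Cochran–Mantel–Haenszel tests, and ratios per gene were given exact conditional intervals. PCR copies cannot be removed without molecular identifiers, and repeated positions were 6.88% of 3′UTR pairs in Input and 9.99% in H3K27me3-RADIP.

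3′UTR lengths, gene positions and isoforms came from GENCODE M21 on the same build, older than the authors' release; 7151 of 7160 gene identifiers matched without their version. Named genes were the 10 with the most 3′UTR pairs in each library, the 5 highest and 5 lowest ratios among genes with at least 50 3′UTR pairs, the 5 highest 3′UTR shares among genes with at least 50 pairs in each library, the 5 longest mean of the 2 median distances among genes with at least 20 3′UTR pairs in each library, 3 names for each library whose 3′UTR pairs were most numerous while the other library had none and the 2 leading names of each gene list. Others were named after their values were seen. The members and lists were chosen with earlier results of these data known. The 8 lists were pluripotency factors, Polycomb subunits, 3′ end processing factors, the microRNA pathway, DNA methylation enzymes, replication-dependent histones, ribosomal proteins and Zfp genes. Medians of log2 ratios used a pseudocount of 0.5. Calculations used Python 3.11.15, numpy 2.4.6, pandas 2.3.3 and scipy 1.17.1, figures matplotlib 3.10.9, and the statistics were tested on simulated data. Alternatives were a q-value limit of 0.01, repeats counted once, other weightings, denominators, distances, minimum counts and folds. Pairs that did not pass the q-value limit were not analysed here. A gene and a sequence among the most used positions and gene ends are not reported here.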

Additional observations from a re-analysis of the deposited data

Results flagged for a closer look

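Comparisons of 3′UTR with intron tags of the same gene differed between the libraries in 3 outcomes, by a 2-sided chi-square (Wald) test of the difference of the log odds ratios on pairs, with Benjamini–Hochberg adjustment over 6 comparisons. The own-bin odds ratio was 1.08 times higher in H3K27me3-RADIP than in Input (chi-square test, adjusted p = 4.39e-05). The odds ratio for a DNA tag over 100 kb away was 0.944 times that in Input (chi-square test, adjusted p = 0.0174), and that for a downstream DNA tag 1.07 times (adjusted p = 4.39e-05). With intron tags of the same gene and 25-kb bin the ratios were 1.04, 1.00 and 1.00, with adjusted p of 0.0821, 0.999 and 0.999. These tests compare 2 merged libraries.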

How the results depend on the processing

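No paired analysis was possible because the libraries of each group are merged into 1 table. The lower 3′UTR share in H3K27me3-RADIP kept its direction with a q-value limit of 0.01, repeats counted once, without the 10 leading genes, among pcRNA pairs, in combinations listed in both libraries and with 3′UTR tags in RefSeq exons only, an alternative chosen after seeing the data. It turned to 0.26 percentage points with each RNA name weighted equally, and to 0.063 with the distances of Input, also chosen after seeing the data. The own-bin odds ratio was 1.00 in Input with intron tags of the same bin, past no threshold, and otherwise 1.45 to 1.7. In H3K27me3-RADIP it was 1.04 there and otherwise 1.45 to 1.8. The 3′UTR over intron median distance, 0.579 in Input and 0.554 in H3K27me3-RADIP, became 0.837 and 0.807 with means, 0.762 and 0.780 with intron tags of the same bin, and 0.548 and 0.522 with RefSeq exons only. The change of 3′UTR against intron pairs was 1.08 within 25 kb, past the threshold, and fell below 1 beyond 25 kb (0.992), with intron tags of the same bin (0.995) and with each gene weighted equally (0.993). Genes past the fold were 160 up and 216 down at 1.5-fold, 228 and 293 of 2035 with at least 10 pairs, and 4 and 8 of 259 with at least 50. Scaled to 3′UTR pairs they were 82 and 75 of 977, so the surplus of lower genes depends on the scaling. Of 118 values of single genes under 3 settings, 115 stayed within their interval; with RefSeq exons only Kdm5b was 1.35, Trim71 0.830 and Gpr107 1.07. That setting gave a ratio for 36 of 41 genes, and none for Mgmt, Wwox, Rps19, H1f2 and H1f3, which had no such tag in at least 1 library. With 20 to 29 pairs, 2-fold ratios were found in 25.8% of genes for 3′UTRs and in 41.2% for introns. The part of depth in these ratios was not tested.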

Other observations

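Base composition around 3′UTR tags placed the RNA and DNA tags differently against their deposited 25-base intervals. Over 20000 RNA tag positions, a base departed from its flanking share by at least 3 percentage points at bases 11 to 16 and 36 to 43, counted from 1 at the 5′ end of the deposited tag, and at neither end of the interval. For the DNA tags of the same pairs, the departures lay at bases -1 to 1 (offsets from the start counted in the same way, with the base before base 1 as 0) and 24 to 29, that is, at the ends of the interval. The largest departures were 12.2 percentage points for RNA and 11.9 for DNA tags. The part of this offset in the values above was not tested. In Input 1.01% of the tags, and in H3K27me3-RADIP 0.992%, lay within 13 bases of the annotated end of their transcript.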
